A study of Homo sapiens with 12 samples.

Results

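The genes described here are 9 genes of major histocompatibility complex (MHC) class I antigen presentation, taken by gene symbol from the 40591 named lines of the deposited count table (60605 lines in all), where each symbol had 1 line. They are HLA-B, HLA-C, HLA-E and HLA-F, which encode class I heavy chains, B2M, TAP1, TAP2, TAPBP and PSMB9. All libraries come from ARPE-19, a widely used cell line derived from the human retinal pigment epithelium (RPE). Poly(A) RNA was sequenced from 12 libraries, 3 in each of 4 groups. The WT group has no open reading frame (ORF) named in its labels. The GFP, GSTA4 and OSK groups were stable lines taken on day 4 of expressing their ORF, which is a green fluorescent protein, glutathione S-transferase alpha 4, or the factors here read as OCT4 (gene POU5F1), SOX2 and KLF4. The labels name neither a promoter for the ORFs nor the number of lines behind the 3 libraries of a group, so an ORF and its line cannot be told apart. P-values then measure only the spread between these libraries, which may be technical.

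Class I molecules show peptides from inside the cell to CD8+ T cells. Proteins are cut by the proteasome, whose interferon-inducible form carries PSMB9 in place of PSMB6. The transporter made of TAP1 and TAP2 carries the peptides into the endoplasmic reticulum. There TAPBP (tapasin) holds an empty heavy chain, paired with its light chain B2M, beside the transporter until a peptide is bound. In most tissues these genes respond to interferons through factors such as IRF1, and to NF-kB. Many of them also respond to the transactivator NLRC5, which is recruited with RFX5, RFXAP and RFXANK to promoters of class I genes. The eye is known as a site of restrained immune responses, and RPE cells are known to raise class I in response to interferon.

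The promoters of 8 members were listed in RefSeq (build GRCh38.p14). The 250 bases before the annotated first base are printed for 7 of them. HLA-B, HLA-C, HLA-F, B2M, TAP1 and PSMB9 are the listed members past the threshold and higher in both GSTA4 and OSK against GFP, and TAPBP is the member with the lowest fold change in GSTA4 against GFP. Capitals mark the matches, on either strand, to the interferon-stimulated response element in a 10-base form (GAAANNGAAA) or a 9-base form (GAANNGAAA), to the 10-base NF-kB consensus, to the CRE core (TGACG) and to the CCAAT box (CCAAT).
HLA-B, chr6:31357180-31357429, minus strand: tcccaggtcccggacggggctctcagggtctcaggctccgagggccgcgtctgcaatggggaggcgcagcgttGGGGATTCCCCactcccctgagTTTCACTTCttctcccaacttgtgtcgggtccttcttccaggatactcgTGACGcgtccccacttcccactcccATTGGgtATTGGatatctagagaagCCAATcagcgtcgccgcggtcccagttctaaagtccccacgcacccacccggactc
HLA-C, chr6:31272093-31272342, minus strand: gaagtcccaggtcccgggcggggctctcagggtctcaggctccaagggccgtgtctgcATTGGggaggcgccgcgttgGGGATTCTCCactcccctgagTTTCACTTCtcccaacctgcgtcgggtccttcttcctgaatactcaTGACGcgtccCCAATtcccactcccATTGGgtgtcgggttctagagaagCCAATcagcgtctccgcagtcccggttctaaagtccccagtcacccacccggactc
HLA-F, chr6:29723184-29723433, plus strand: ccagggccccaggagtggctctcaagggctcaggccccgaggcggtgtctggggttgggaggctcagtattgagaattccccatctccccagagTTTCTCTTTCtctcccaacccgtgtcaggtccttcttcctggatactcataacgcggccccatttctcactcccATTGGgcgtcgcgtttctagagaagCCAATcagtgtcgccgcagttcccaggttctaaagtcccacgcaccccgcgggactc
B2M, chr15:44711267-44711516, plus strand: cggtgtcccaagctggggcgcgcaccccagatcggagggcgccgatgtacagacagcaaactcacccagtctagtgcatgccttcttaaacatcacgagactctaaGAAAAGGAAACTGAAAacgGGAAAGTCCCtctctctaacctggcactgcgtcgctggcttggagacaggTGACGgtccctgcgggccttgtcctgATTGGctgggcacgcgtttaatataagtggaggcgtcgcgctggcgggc
TAP1, chr6:32853705-32853954, minus strand: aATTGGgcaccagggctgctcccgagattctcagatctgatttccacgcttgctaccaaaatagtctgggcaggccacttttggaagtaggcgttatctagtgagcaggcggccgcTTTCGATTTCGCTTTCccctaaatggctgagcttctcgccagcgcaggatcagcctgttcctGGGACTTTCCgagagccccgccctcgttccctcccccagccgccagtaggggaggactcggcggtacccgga
PSMB9, chr6:32853942-32854191, plus strand: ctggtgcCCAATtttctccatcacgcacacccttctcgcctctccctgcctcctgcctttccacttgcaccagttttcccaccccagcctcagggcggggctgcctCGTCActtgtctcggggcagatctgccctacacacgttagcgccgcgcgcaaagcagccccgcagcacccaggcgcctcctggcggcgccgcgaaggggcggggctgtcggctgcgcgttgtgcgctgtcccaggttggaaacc
TAPBP, chr6:33314079-33314328, minus strand: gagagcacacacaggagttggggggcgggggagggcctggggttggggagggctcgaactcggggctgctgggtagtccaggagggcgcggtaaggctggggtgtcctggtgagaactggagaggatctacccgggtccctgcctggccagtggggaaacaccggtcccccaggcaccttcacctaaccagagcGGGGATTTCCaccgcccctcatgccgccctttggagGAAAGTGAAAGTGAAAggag
HLA-B and HLA-C had a similar arrangement, with an NF-kB match ahead of a 9-base interferon element, a CRE core and several CCAAT boxes. In HLA-B the first of each began at -177, -155, -106 and -81, counted from the annotated first base. HLA-F had a 10-base interferon element and CCAAT boxes but no match to the NF-kB consensus or the CRE core as spelled here. In TAPBP the interferon elements, a pair of overlapping matches, ended at -5. An interferon element of either form was found in 7 of 9 member windows (TAP1 has a window for each of 2 listed starts) and in 9.08% of 35116 windows of the same length. The NF-kB consensus was found in 5 member windows and in 9.96% of all windows, and all 5 also held an interferon element. Both were held by 0.584% of all windows. The CRE core was found in 5 member windows (21.2% of all) and the CCAAT box in 6 (32.0% of all). Several of these elements share bases with a further match of the same kind. The spellings were chosen with these sequences in view, and a match describes the letters only.

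**Figure D1:**
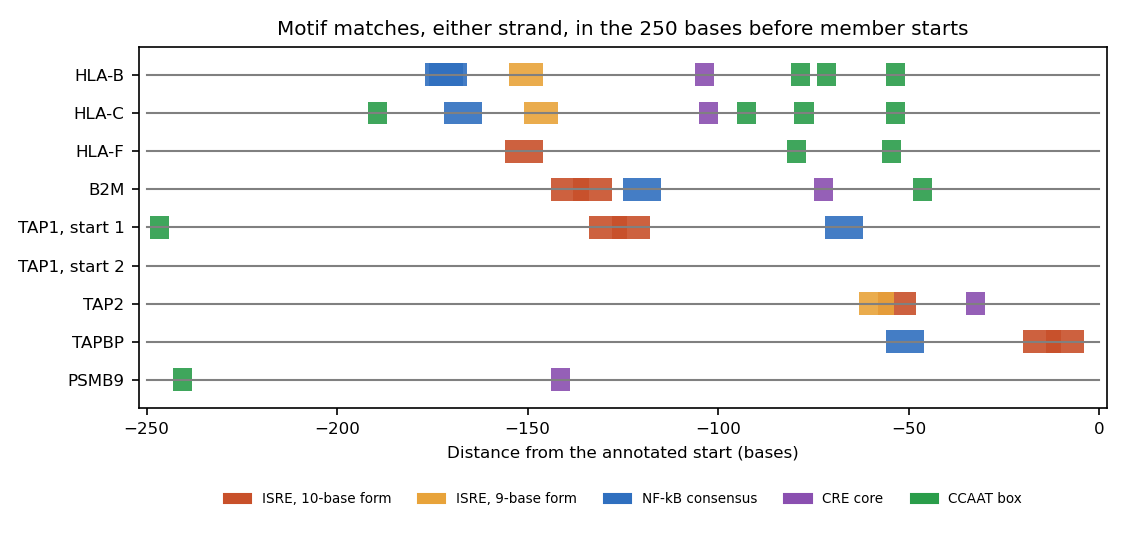
Motif matches (coloured blocks) on either strand in the 250 bases before the annotated start of each member, with distance from the start in bases on the x axis. ISRE stands for the interferon-stimulated response element. HLA-B and HLA-C line up closely, and the window before the downstream start of TAP1 holds no match.

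TAP1 (chr6:32845209-32853704) and PSMB9 (chr6:32854192-32859851) lie head to head, and their annotated first bases are 488 bases apart. The PSMB9 window held a CRE core and a CCAAT box and no interferon element. The interferon elements of the TAP1 window, at -134 to -125 and -128 to -119 from the TAP1 start, lie between these starts. They fall upstream of PSMB9 but outside its window, so the lack of one there depends on the window length. HLA-B (chr6:31353875-31357179) and HLA-C (chr6:31268749-31272092) lie in the same region of chromosome 6 as the other members, except B2M, which is on chromosome 15 (chr15:44711517-44718145). HLA-E (chr6:30489509-30494194), HLA-F (chr6:29723434-29738532), TAP2 (chr6:32821831-32838739) and TAPBP (chr6:33299694-33314078) are the rest. In GENCODE release 29 the exons of HLA-B and HLA-C share 33 bases on the same strand, those of PSMB9 share 139 bases with PSMB8-AS1 on the same strand, and those of TAP1 share 456 bases with it on the opposite strand. HLA-B and HLA-F share 372 and 539 exon bases with pseudogenes on the opposite strand. Reads there cannot be assigned with certainty, since the strand setting of the counting is not given in the sources used here.

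Total counts ran from 12630675 to 17045454 per library. In their own lines the ORF genes stood far above the GFP line, at 416 CPM for GSTA4 and 779, 628 and 928 CPM for POU5F1, SOX2 and KLF4, against 8.79, 0.220, 0.149 and 0.658 CPM in GFP. CPM are counts scaled to a common library total after TMM normalization, which balances the libraries on the bulk of genes. A pair of libraries stood apart. WT replicate 1 differed from the other WT libraries by a chi-square of 15.0 and 17.4 per degree of freedom, where all other pairs within a group gave 2.54 to 7.12. In GFP replicate 1, 27349 named genes were detected, while each other library detected 19488 to 22073. Of the RPE markers, MITF, OTX2, PMEL, TYR, SERPINF1, KRT8 and KRT18 were present at a mean of at least 11.9 CPM in every group. RPE65 was at or under 0.495 CPM and TTR at or under 0.114. Group means ran from 0.692 to 5.24 CPM for RLBP1, from 2.85 to 8.65 for BEST1 and from 1.05 to 14.3 for LRAT. The summed level of the 12 RPE markers, mostly KRT8 and KRT18, ran from 2284 to 2572 CPM for WT, 2015 to 2311 for GFP, 1535 to 1599 for GSTA4 and 1247 to 1323 for OSK. Of 10 markers tested, 10 were lower in OSK than in GFP, where 22.8% of all tested genes were. In GSTA4 against GFP, 7 were lower and 1 higher (14.6% and 14.7% of all tested genes). Between GFP and WT, 7 were higher and 2 lower in GFP (11.0% and 11.2% of all). Against WT, 5 were lower and 2 higher in OSK (22.7% of all each way). In GSTA4 against WT, 5 were lower and 3 higher (19.0% and 19.7% of all). Their part in the class I results was not tested. In bulk RNA, more RNA per cell and more cells with that RNA cannot be told apart. The mitochondrial share of reads, 6.05% to 6.54% in GFP, was 7.55% to 7.82% in GSTA4 and 6.81% to 6.89% in OSK, and its part was not tested either.

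Class I RNA was highest in the OSK line and second highest in the GSTA4 line. The 9 members together took 0.101% to 0.113% of named reads for WT, 0.103% to 0.114% for GFP, 0.167% to 0.171% for GSTA4 and 0.326% to 0.370% for OSK. In OSK against GFP all 9 of 9 members were past the threshold and higher (edgeR quasi-likelihood test, Benjamini-Hochberg adjusted p under 0.05), where 23.1% of 15179 tested genes were higher and 22.8% lower. Scaled by library size alone, the split of all genes in that comparison moved from 3508 higher and 3454 lower to 2761 and 4180, and the 9 members stayed higher. The GSTA4 line had 7 of 9 higher and 0 lower than GFP, where 14.7% of tested genes were higher and 14.6% lower. In GFP against WT 3 were higher and 1 lower, where 11.0% and 11.2% of tested genes were. The median log2 fold change of the members was 1.86 for OSK and 0.57 for GSTA4, each against GFP, and 0.073 for GFP against WT. That of all tested genes was between -0.019 and 0.0098. The comparisons of GSTA4 and OSK with GFP share the GFP libraries. All 9 members passed the filter on low counts.

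**Figure D2:**
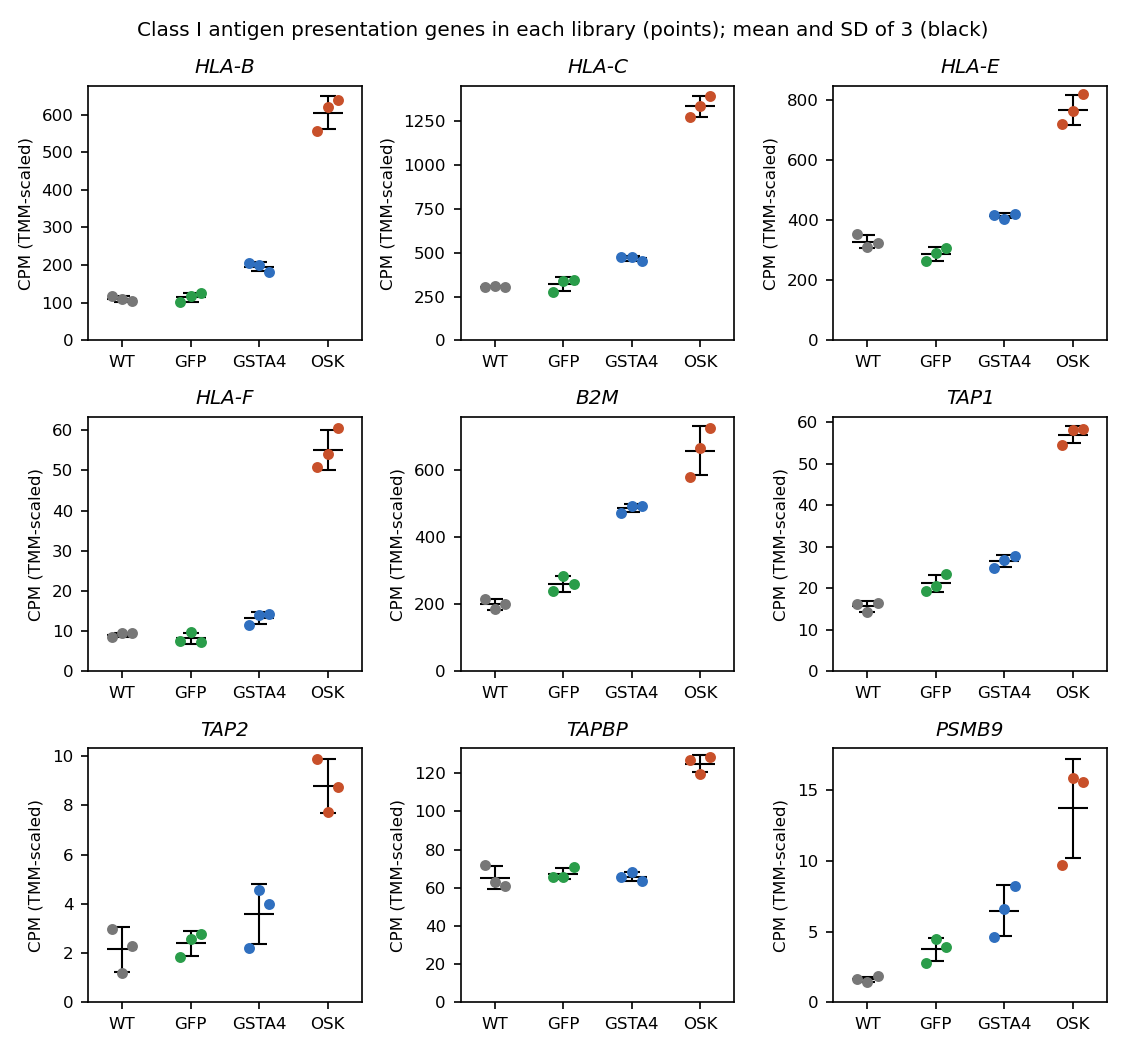
Level of each member in CPM (y axis, linear from 0, a separate scale per gene) in the 3 libraries of each group (points), with the mean and SD of the 3 in black. In each of the 9 panels the 3 OSK libraries lie above the libraries of every other group. How many of all tested genes are separated in this way was not counted.

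The heavy chains HLA-B and HLA-C present peptides to T cells in nearly all nucleated cells. HLA-B had 119, 109 and 104 CPM in the WT libraries, 102, 118 and 125 in the GFP libraries, 204, 201 and 183 in the GSTA4 libraries and 555, 621 and 638 in the OSK libraries. The OSK and GSTA4 libraries each lay clear of all others, while WT and GFP overlapped. In OSK against GFP the log2 fold change of HLA-B was 2.39 ± 0.0803 (SE) with an adjusted p of 2.21e-15, a 5.26-fold difference. In GSTA4 against GFP it was 0.77 ± 0.0785 (SE) with an adjusted p of 2.00e-07, or 1.71-fold. GFP and WT did not differ past the threshold, at 0.055 with a 95% interval of -0.11 to 0.22.

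HLA-C had 306, 309 and 303 CPM in the WT libraries, 278, 341 and 347 in the GFP libraries, 477, 474 and 451 in the GSTA4 libraries and 1272, 1334 and 1393 in the OSK libraries. Its order of groups was that of HLA-B, with no overlap between OSK, GSTA4 and the controls. It rose by 2.05 ± 0.0733 (SE) with an adjusted p of 6.39e-15 on the log2 scale in OSK and by 0.54 ± 0.0713 (SE) with an adjusted p of 7.14e-06 in GSTA4, each against GFP. Against WT, GFP stood at 0.073 (adjusted p 0.508), which without GFP replicate 1 became 0.17 (adjusted p 0.0437). The heavy chain genes are close relatives and vary between people, and the sources used here do not say how reads that match several of them were counted, so a read may be credited to the wrong chain.

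HLA-E presents leader peptides of other class I chains to receptors of natural killer cells. It had 355, 309.9 and 323 CPM in the WT libraries, 263, 290.2 and 308 in the GFP libraries, 419, 405 and 419.7 in the GSTA4 libraries and 719, 763 and 819 in the OSK libraries. Here too OSK was highest and GSTA4 next, without overlap, but the GFP libraries lay below those of WT. HLA-E rose by 1.42 ± 0.0698 (SE) with an adjusted p of 1.06e-12 in OSK and by 0.53 ± 0.0691 (SE) with an adjusted p of 5.72e-06 in GSTA4 against GFP. Its fall in GFP against WT was small, at -0.20 ± 0.0691 (SE) with an adjusted p of 0.0442. That call was lost in 8 of the 12 fits with a library left out, among them those without GFP replicate 1 (-0.14, adjusted p 0.165) and without WT replicate 1 (-0.14, adjusted p 0.152), and with only the compared groups in the fit (adjusted p 0.11).

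HLA-F is a non-classical heavy chain that binds receptors of natural killer cells. It had 8.59, 9.47 and 9.44 CPM in the WT libraries, 7.53, 9.89 and 7.27 in the GFP libraries, 11.6, 14.04 and 14.2 in the GSTA4 libraries and 50.8, 54.0 and 60.6 in the OSK libraries. The level was low in all but the OSK libraries, and WT and GFP overlapped. Of the 9 members it had the largest log2 fold change in OSK against GFP, 2.74 ± 0.121 (SE) with an adjusted p of 1.80e-13, a 6.69-fold difference. In GSTA4 against GFP it rose by 0.68 ± 0.132 (SE) with an adjusted p of 0.000497.

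B2M, the light chain shared by all these heavy chains, had 217, 185 and 200.3 CPM in the WT libraries, 239, 285 and 260.0 in the GFP libraries, 473, 492 and 495 in the GSTA4 libraries and 581, 668 and 727 in the OSK libraries. The groups did not overlap in any pair, and their order was WT, GFP, GSTA4 and OSK. B2M rose by 0.90 ± 0.0802 (SE) with an adjusted p of 2.85e-08 in GSTA4 against GFP, the largest rise of a member in that comparison. It rose by 1.33 ± 0.0806 (SE) with an adjusted p of 2.75e-11 in OSK against GFP. The step from GSTA4 to OSK was 0.44 ± 0.0790 (SE) with an adjusted p of 0.000104, the smallest of the 9 members, where HLA-B differed by 1.62 and HLA-F by 2.06. GFP was also above WT, by 0.38 ± 0.0805 (SE) with an adjusted p of 0.00212.

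TAP1, one subunit of the peptide transporter, had 16.2, 14.2 and 16.5 CPM in the WT libraries, 19.4, 20.6 and 23.6 in the GFP libraries, 24.97, 26.9 and 27.9 in the GSTA4 libraries and 54.6, 58.1 and 58.3 in the OSK libraries. The order of groups was that of B2M, again with no overlap. TAP1 rose by 1.42 ± 0.0898 (SE) with an adjusted p of 5.25e-11 in OSK against GFP and by 0.44 ± 0.0972 (SE) with an adjusted p of 0.00306 in GFP against WT. Its rise in GSTA4 against GFP was smaller, 0.32 ± 0.0933 (SE) with an adjusted p of 0.0123, and was not past the threshold without GFP replicate 1 (0.26, adjusted p 0.0637) or without GSTA4 replicate 3 (0.29, adjusted p 0.0538).

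TAP2, the partner subunit, was the least abundant member per length. It had 2.99, 1.17 and 2.30 CPM in the WT libraries, 1.82, 2.58 and 2.79 in the GFP libraries, 2.22, 4.58 and 3.99 in the GSTA4 libraries and 9.89, 7.72 and 8.72 in the OSK libraries. OSK stood above the other groups, whose libraries overlapped. TAP2 rose by 1.86 ± 0.282 (SE) with an adjusted p of 1.64e-05 in OSK against GFP. In GSTA4 against GFP its log2 fold change was 0.57 ± 0.304 (SE) with an adjusted p of 0.178, with a 95% interval of -0.068 to 1.20. At this depth, with 16 to 61 reads per library outside OSK, this interval holds both 0 and the fold change of HLA-B. The exons of TAP2 share 2064 bases with another GENCODE gene on the same strand (AL669918.1), and reads there may not have been credited to TAP2.

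TAPBP bridges the transporter and the heavy chain. It had 72.1, 63.1 and 60.9 CPM in the WT libraries, 65.7, 65.6 and 70.9 in the GFP libraries, 65.8, 68.1 and 63.6 in the GSTA4 libraries and 127, 119.8 and 129 in the OSK libraries. The WT, GFP and GSTA4 libraries overlapped, and only the OSK libraries lay higher. TAPBP rose by 0.89 ± 0.0690 (SE) with an adjusted p of 1.29e-09 in OSK against GFP, the smallest rise of the 9. In GSTA4 against GFP it stood at -0.034 ± 0.0705 (SE) with an adjusted p of 0.76, with a 95% interval of -0.18 to 0.11 that lies below the intervals of HLA-B (0.61 to 0.93) and B2M (0.73 to 1.06). Whether TAPBP and these genes differ was not tested.

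**Figure D3:**
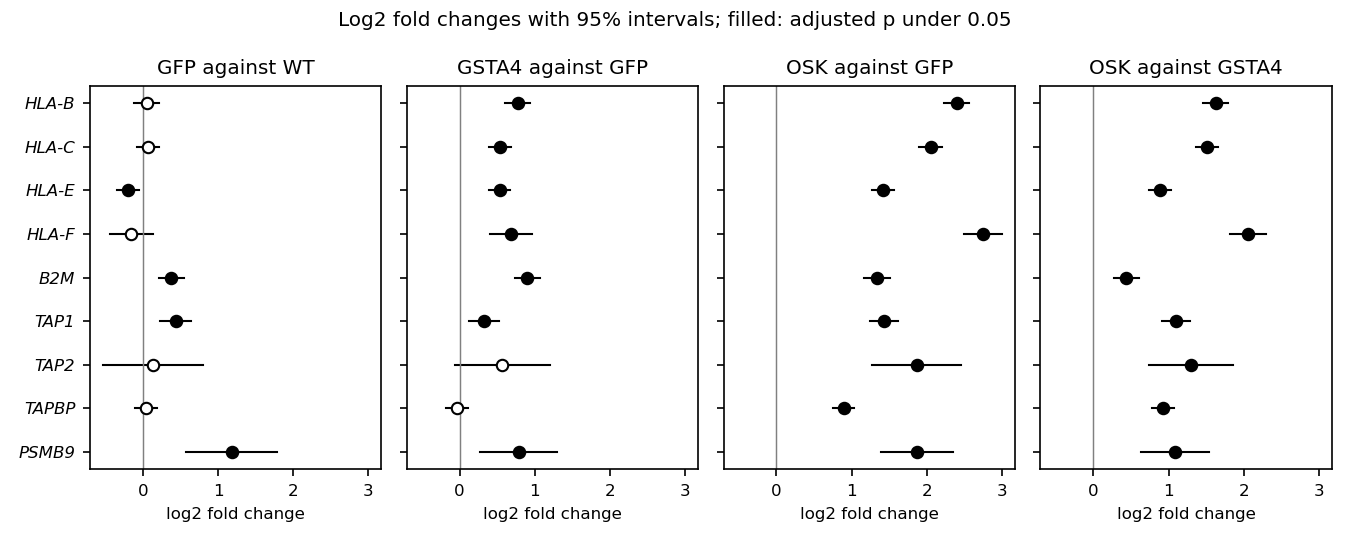
Log2 fold change (x axis) of each member in 4 comparisons, with 95% intervals as lines and filled points for an adjusted p under 0.05. All 9 members lie right of 0 in OSK against GFP and OSK against GSTA4, while the interval of TAPBP spans 0 in GSTA4 against GFP.

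PSMB9, the inducible proteasome subunit, had 1.62, 1.47 and 1.83 CPM in the WT libraries, 2.81, 4.44 and 3.94 in the GFP libraries, 4.64, 6.60 and 8.19 in the GSTA4 libraries and 9.68, 15.8 and 15.5 in the OSK libraries. No group overlapped another, and the order was WT, GFP, GSTA4 and OSK. PSMB9 rose by 1.87 ± 0.231 (SE) with an adjusted p of 1.15e-06 in OSK against GFP and by 1.18 ± 0.288 (SE) with an adjusted p of 0.00591 in GFP against WT. Its rise in GSTA4 against GFP, 0.78 ± 0.243 (SE) with an adjusted p of 0.0192, was lost without GFP replicate 1 (0.62, adjusted p 0.0999), without GSTA4 replicate 2 (0.77, adjusted p 0.0523) and without GSTA4 replicate 3 (0.58, adjusted p 0.122). The count of members past the threshold in GSTA4 against GFP was 5 without GFP replicate 1, where TAP1 and PSMB9 were lost. In OSK against GFP it was 9 without that library.

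The GSTA4 and OSK lines were also compared with WT. Here 7 members were higher in GSTA4 and 9 in OSK, where 19.7% and 22.7% of tested genes were, and 0 were lower, where 19.0% and 22.7% were. HLA-B differed from WT by 0.83 ± 0.0784 (SE) with an adjusted p of 5.57e-08 in GSTA4 and by 2.45 ± 0.0803 (SE) with an adjusted p of 1.70e-15 in OSK. PSMB9 differed most, by 1.97 in GSTA4 and 3.05 in OSK. TAPBP in GSTA4 stood at 0.010 against WT, with a 95% interval of -0.14 to 0.16. TAP2 in GSTA4 stood at 0.71 against WT, with an adjusted p of 0.0728. It was past the threshold without WT replicate 1 (adjusted p 0.0151), without GSTA4 replicate 1 (0.0168) and with no filter on low counts (0.0335). These comparisons and those with GFP share the GSTA4 and OSK libraries.

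OSK was compared with GSTA4 directly. All 9 members were higher in OSK, where 24.1% of tested genes were higher and 23.8% lower, with a median log2 fold change of 1.10. The differences ran from 0.44 for B2M (adjusted p 0.000104) to 2.06 for HLA-F (adjusted p 4.34e-12). Among the chains of T cell recognition, HLA-B differed by 1.62 (SE 0.0775) and HLA-C by 1.51 (SE 0.0719). An F test over the 4 groups was past the threshold for 9 of 9 members, where 66.9% of tested genes were.

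Levels of different members can be set side by side only per length. Divided by the length of their GENCODE release 29 exons, the GFP means were 207 RPKM (CPM per kilobase of exon) for HLA-C, 110.3 for HLA-E, 109.8 for B2M and 72.4 for HLA-B. TAPBP followed at 16.1, TAP1 at 7.17, HLA-F at 4.15, PSMB9 at 4.05 and TAP2 at 0.388. In GFP the libraries of HLA-E and B2M overlapped, as did those of HLA-F and PSMB9. Per length, TAP1, TAP2 and PSMB9 were below HLA-B, HLA-C, HLA-E and B2M in all 4 groups. In GSTA4, B2M at 205 RPKM stood second to HLA-C at 301. In OSK, HLA-B at 381 RPKM stood second to HLA-C at 858, above HLA-E at 295 and B2M at 277. The lowest OSK library for HLA-B, 349.9, lay above the highest for HLA-E, 315, and for B2M, 306, while HLA-E and B2M overlapped. The annotation release behind the counts is not given in the sources used here, so these lengths are approximate.

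A pair of ratios within a library needs no scaling. The first sets PSMB9 against PSMB6, the constitutive subunit whose place it takes. PSMB9 had 3.52, 3.01 and 3.49 reads per 100 PSMB6 reads in the WT libraries, 7.54, 10.0 and 9.29 in the GFP libraries, 9.80, 15.2 and 16.8 in the GSTA4 libraries and 18.9, 36.9 and 33.6 in the OSK libraries. The means were 3.34 ± 0.287, 8.96 ± 1.29, 13.9 ± 3.67 and 29.8 ± 9.59 (SD, n = 3 each). OSK lay above GFP and GSTA4 without overlap, and GSTA4 overlapped GFP. The two-sided exact permutation p was 0.1 for OSK against GFP and 0.2 for GSTA4 against GFP (0.12 and 0.2 adjusted over 6 pairs of groups), where 0.1 is the smallest that 3 against 3 allows.

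The second ratio is the share of HLA-B in the reads of HLA-B and HLA-C. It was 28.0, 26.1 and 25.5% in the WT libraries, 26.8, 25.7 and 26.6% in the GFP libraries, 29.99, 29.7 and 28.9% in the GSTA4 libraries and 30.4, 31.8 and 31.4% in the OSK libraries. The group means were 26.5 ± 1.30%, 26.3 ± 0.588%, 29.5 ± 0.596% and 31.2 ± 0.720% (SD, n = 3 each). The share was a few points higher in GSTA4 and OSK than in either control, with no overlap (exact permutation p 0.1 in each, two-sided, 0.12 adjusted over 6 pairs). With 3 against 3 the test cannot go below 0.1.

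**Figure D4:**
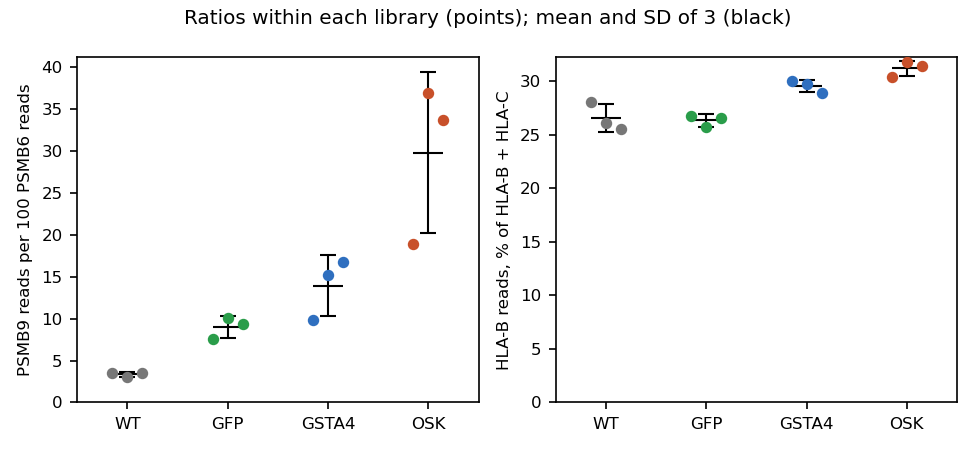
PSMB9 reads per 100 PSMB6 reads (left) and HLA-B as a percent of HLA-B and HLA-C reads (right) in each library (points), with mean and SD of 3 in black, both axes linear from 0. The OSK libraries are highest in both panels, and OSK replicate 1 is the lowest of its group.

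The list of further class I genes held proteasome subunits and activators, peptide trimming enzymes, chaperones and the heavy chain HLA-G. Of these 14 genes, all tested, 10 were higher and 0 lower in OSK against GFP, with a median log2 fold change of 0.37. Of all tested genes 23.1% were higher and 22.8% lower in that comparison. For GSTA4 against GFP the counts were 3 higher and 3 lower, with a median of 0.023 (14.7% and 14.6% of all tested genes). For GFP against WT they were 3 and 2 (11.0% and 11.2% of all). PSMB8, a further inducible proteasome subunit encoded beside TAP1, had 11.7, 12.6 and 11.5 CPM in the WT libraries, 15.4, 16.6 and 18.3 in the GFP libraries, 20.02, 24.2 and 26.5 in the GSTA4 libraries and 43.8, 46.7 and 45.9 in the OSK libraries. It rose by 1.44 ± 0.103 (SE) with an adjusted p of 3.60e-10 in OSK and by 0.49 ± 0.106 (SE) with an adjusted p of 0.0015 in GSTA4 against GFP, and by 0.49 ± 0.113 (SE) with an adjusted p of 0.00387 in GFP against WT. TAPBPL (TAPBPR), an editor of bound peptides, rose by 1.10 ± 0.144 (SE) with an adjusted p of 2.45e-06 in OSK against GFP. In GFP against WT it rose by 0.68 ± 0.160 (SE) with an adjusted p of 0.00476. ERAP2, which trims peptides in the endoplasmic reticulum, rose by 0.93 ± 0.129 (SE) with an adjusted p of 3.74e-05 in GFP against WT and by 1.08 ± 0.119 (SE) with an adjusted p of 1.88e-07 in OSK against GSTA4.

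HLA-G, a non-classical heavy chain known from the placenta, had the largest fold change of the list in OSK against GFP, 2.21 ± 0.579 (SE) with an adjusted p of 0.00371, at a mean of 0.309 CPM in GFP and 1.47 in OSK. It had 3 to 6 reads per GFP library and, as a close relative of the other heavy chains, may hold reads of theirs.

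CALR and CANX are chaperones of heavy chain folding. CALR (calreticulin) had 1246 CPM ± 130.4 in GFP, 964 CPM ± 34.6 in GSTA4 and 1825 CPM ± 85.1 in OSK (SD, n = 3 each). It fell in GSTA4 against GFP, -0.37 ± 0.0776 (SE) with an adjusted p of 0.00109, and rose in OSK, 0.55 ± 0.0776 (SE) with an adjusted p of 6.42e-06. CANX (calnexin) fell in GSTA4 too, -0.26 ± 0.0600 (SE) with an adjusted p of 0.00259. CANX in OSK against GFP stood at 0.17 ± 0.0599 (SE) with an adjusted p of 0.0221, a call lost with scaling by library size alone (0.10, adjusted p 0.105), without GFP replicate 1 or 2 and without OSK replicate 2 or 3 (adjusted p 0.0553 to 0.0754). In OSK against GSTA4, CALR was higher by 0.92 (adjusted p 3.68e-09).

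Among 20 regulators of class I genes, 19 were tested. In OSK against GFP 10 were higher and 2 lower, where 23.1% and 22.8% of all tested genes were. In OSK against GSTA4 9 were higher and 2 lower (24.1% and 23.8% of all tested genes). In GSTA4 against GFP 2 were higher and 3 lower, where 14.7% and 14.6% of all tested genes were. NLRC5, the class I transactivator, had 16.6, 11.9 and 13.8 CPM in the WT libraries, 19.998, 19.0 and 18.3 in the GFP libraries, 34.7, 35.6 and 32.1 in the GSTA4 libraries and 70.4, 70.1 and 68.2 in the OSK libraries. Its groups followed the order WT, GFP, GSTA4 and OSK without overlap. NLRC5 rose by 0.43 ± 0.105 (SE) with an adjusted p of 0.00565 in GFP against WT, by 0.84 ± 0.0976 (SE) with an adjusted p of 1.35e-06 in GSTA4 against GFP and by 1.86 ± 0.0950 (SE) with an adjusted p of 1.77e-12 in OSK against GFP. RFX5, which binds the same promoter element, rose by 0.34 ± 0.0717 (SE) with an adjusted p of 0.00128 in GSTA4 against GFP. In OSK it stood at 42.7 CPM, against 45.2 in GFP.

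TYK2, a kinase of the interferon receptors, had 88.6 CPM ± 4.74 in GFP and 299.9 CPM ± 9.60 in OSK, a rise of 1.76 ± 0.0604 (SE) with an adjusted p of 3.14e-15. JAK1, another such kinase, changed by -0.46 ± 0.0554 (SE) with an adjusted p of 8.37e-06 in GFP against WT, and JAK2 changed by -0.70 ± 0.127 (SE) with an adjusted p of 0.000549. The 5 regulators past the threshold in GSTA4 against GFP became 3 without GFP replicate 2 or GSTA4 replicate 1, and 2 without GSTA4 replicate 2. In these 3 fits all genes past the threshold went from 4439 to 3738, 3635 and 3450.

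Of 24 interferon-stimulated genes outside antigen presentation, 15 were tested. In OSK against GFP 9 were higher and 0 lower, where 23.1% and 22.8% of all tested genes were. The median log2 fold change of the list was 0.82 there. The GSTA4 line had 4 higher and 1 lower than GFP (median 0.56), where 14.7% and 14.6% of all were. In GFP against WT 4 were higher and 0 lower (median 0.42), where 11.0% and 11.2% of all were. Without GFP replicate 2 these 4 became 2, and all genes past the threshold went from 3369 to 2268. In OSK against GSTA4 5 were higher and 1 lower (median 0.40), where 24.1% and 23.8% of all were. IFITM3, a membrane protein that blocks virus entry, had 95.7, 94.6 and 92.2 CPM in the WT libraries, 88.0, 99.4 and 104 in the GFP libraries, 175, 174 and 172 in the GSTA4 libraries and 136, 154 and 157 in the OSK libraries. It was highest in GSTA4, rising there by 0.84 ± 0.0673 (SE) with an adjusted p of 5.88e-09 and in OSK by 0.62 ± 0.0674 (SE) with an adjusted p of 2.11e-07, each against GFP. IFIT1, which binds foreign RNA, rose by 1.35 ± 0.230 (SE) with an adjusted p of 0.000144 in GSTA4 against GFP, and IFI6 by 0.93 ± 0.180 (SE) with an adjusted p of 0.000253 in OSK against GFP.

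GBP1, a guanylate-binding protein of the interferon gamma response, had 1.31, 4.70 and 3.25 CPM in the WT libraries, 4.11, 5.38 and 6.18 in the GFP libraries, 2.54, 1.65 and 1.44 in the GSTA4 libraries and 5.41, 7.72 and 8.02 in the OSK libraries. It fell in GSTA4 against GFP, -1.46 ± 0.340 (SE) with an adjusted p of 0.00264, and was higher in OSK than in GSTA4, 1.89 ± 0.331 (SE) with an adjusted p of 7.29e-05. DDX60, a helicase of the antiviral response, rose by 2.21 ± 0.201 (SE) with an adjusted p of 1.53e-08 in OSK against GFP. OAS3, a sensor of double-stranded RNA, rose by 1.45 ± 0.315 (SE) with an adjusted p of 0.00253 in GFP against WT. MX1 rose there by 1.62 ± 0.395 (SE) with an adjusted p of 0.00584, and IFIT2 by 1.11 ± 0.263 (SE) with an adjusted p of 0.00505, a call lost without GFP replicate 2 (0.69, adjusted p 0.0585). CXCL10, a chemokine strongly induced by interferon gamma, had 0 reads in all 12 libraries, which allows at most 3 reads per library, or 0.177 to 0.228 CPM. These floors cover counting error only.

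**Figure D5:**
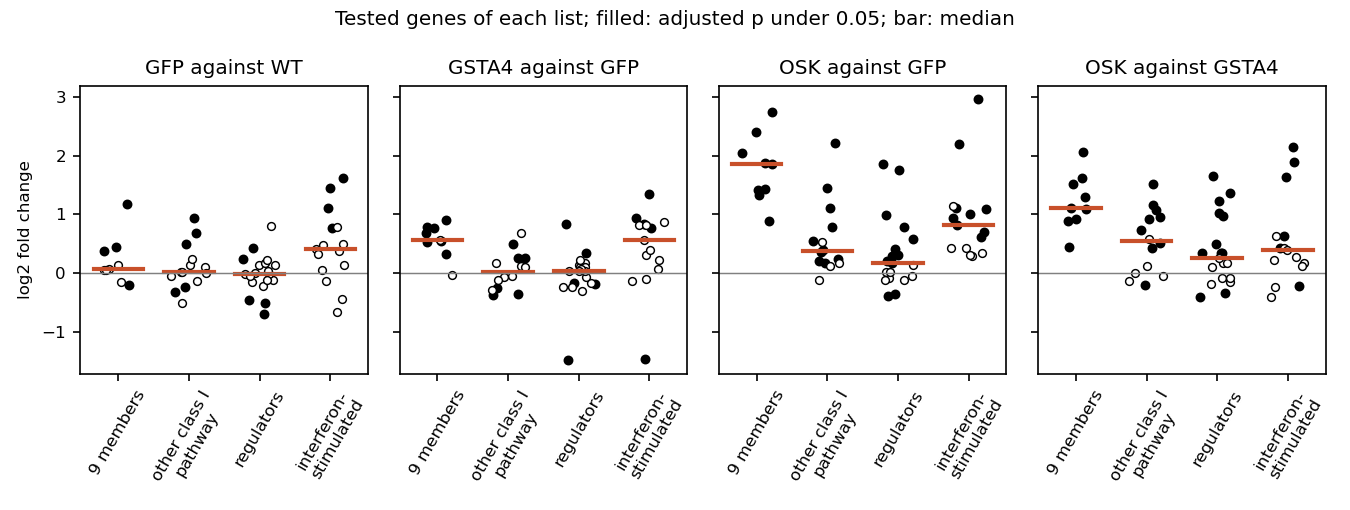
Log2 fold change (y axis) of the tested genes of the 9 members, the other class I pathway genes, the class I regulators and the interferon-stimulated genes in 4 comparisons, with filled points for an adjusted p under 0.05 and a bar at the median. In OSK against GFP the median of the members, 1.86, lies above those of the other lists, 0.37, 0.17 and 0.82.

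Genes of class II presentation, which serves CD4+ T cells, were near 0. HLA-DRA, HLA-DRB1, HLA-DPA1, HLA-DPB1, HLA-DQA1, HLA-DQB1 and HLA-DMB were at a mean of at most 0.330 CPM in every group, and HLA-DMA and CD74 at most 1.55 CPM. HLA-DRA, the alpha chain of HLA-DR, had 0 reads in the 3 OSK libraries. CIITA, the class II transactivator, stood at 3.05 CPM ± 0.640 for WT, 4.17 CPM ± 0.989 for GFP, 2.23 CPM ± 0.733 for GSTA4 and 1.88 CPM ± 0.400 for OSK (SD, n = 3 each). It fell in OSK against GFP, -1.15 ± 0.298 (SE) with an adjusted p of 0.00337. Against WT it was not past the threshold in OSK (-0.71, adjusted p 0.0616) or in GSTA4 (-0.44, adjusted p 0.253). In GSTA4 against GFP it stood at -0.88 ± 0.291 (SE) with an adjusted p of 0.0267, a call lost without GFP replicate 1 or 2 and without GSTA4 replicate 2 or 3 (-0.66 to -0.94, adjusted p 0.054 to 0.131). The 8 leukocyte markers summed to 2.43 CPM in GFP replicate 1 and to at most 0.622 CPM in any other library, and 6 of the 8 had 0 reads in OSK. PTPRC, CD3E and LYZ were among those 6.

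The profile of the members was taken as the mean of their standardised log2 (CPM + 0.5) over the 12 libraries. Each member followed the mean of the other 8 with a Pearson r from 0.900 for B2M to 0.991 for HLA-B. Among tested genes outside the lists with a mean of at least 1 CPM, the profile was most like that of TENT5A (r = 0.995), ADAM15 (0.990), CPNE8 (0.990), PIGT (0.988) and PLEKHB2 (0.987). These values describe 12 libraries that fall into 4 groups, so they rest mostly on the order of the groups. TENT5A, a cytoplasmic poly(A) polymerase, had 29.6 CPM ± 3.66 for WT, 31.0 ± 2.08 for GFP, 52.5 ± 2.54 for GSTA4 and 151 ± 10.9 for OSK (SD, n = 3 each). ADAM15, a membrane metalloproteinase, had 178 ± 16.2 in GFP and 661 ± 48.8 in OSK.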

How the data were processed

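The authors deposited 1 table of raw read counts per gene, per the file headers 1 column per library. STAR 2.7.1a, featureCounts 1.6.2 and the builds GRCh38 and GRCm38 are listed in the submitters' processing notes. The annotation release, the strand setting and the handling of reads that match several genes are not given in the sources used here. Lines without a symbol (20014, with 0.485% to 0.822% of reads) were left out. The quasi-likelihood test of edgeR 4.0.16 (R 4.3.3, limma 3.58.1) was run on the counts after filterByExpr and TMM, all 12 libraries in 1 fit with a mean per group, 8 residual and 12.0 prior degrees of freedom. P-values are two-sided and adjusted by Benjamini-Hochberg over the 15179 genes tested. SE is the log2 fold change over the root of F, and intervals use the t quantile 2.09. The test was checked on simulated data. Fold changes and counts past the threshold were recomputed with DESeq2 1.42.0, with a replicate block, with only the compared groups, with RLE or library-size scaling, without the filter or with a floor of 1 CPM on the mean, and with each library left out. The ratios were recomputed with another denominator and with each library left out. Per-length levels and profile correlations were not recomputed.

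The members and gene lists were chosen with earlier results of these data known. Named beside the members were the ORF genes, the 5 genes most like the members and, per list and comparison, up to 3 genes past the threshold with the lowest adjusted p and no overlap of groups, of which 1 gene is not reported here. Marker genes, PSMB6, and RFX5 in OSK are given by level. CIITA, HLA-G and CANX in OSK were named after their values were seen. Promoter motif spellings were chosen with the sequences in view.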

Additional observations from a re-analysis of the deposited data

How the results depend on the processing

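The number of members past the threshold was 9 in OSK against GFP, OSK against GSTA4 and OSK against WT under every alternative tried. In GSTA4 against GFP it was 7 under the 7 other settings and 5 to 7 with a library left out, and in GFP against WT it was 3 to 4 throughout. Members not past the threshold changed sign with a library left out. In GFP against WT, HLA-B ran from -0.012 to 0.14, TAP2 from -0.13 to 0.44 and TAPBP from -0.0057 to 0.12. TAPBP ran from -0.059 to 0.0043 in GSTA4 against GFP and from -0.040 to 0.087 in GSTA4 against WT. The regulators past the threshold in GSTA4 against GFP ran from 2 to 6 with a library left out, and all genes past it from 3450 to 5003. The interferon-stimulated genes past it in GFP against WT ran from 2 to 5, and were 7 with no filter on low counts, which tested more genes. Over the reads of PSMB5, PSMB6 and PSMB7, PSMB9 had 0.585 (WT), 1.40 (GFP), 2.27 (GSTA4) and 5.006 (OSK) reads per 100. HLA-B took 14.6%, 15.7%, 17.96% and 21.9% of the reads of HLA-B, HLA-C, HLA-E and HLA-F in these groups. Replicate numbers are shared by the groups, and no label says what a number marks. Correlations of same-numbered libraries ran from -0.0193 to 0.153, with 3 of 18 over 0.1 (WT replicate 1 with replicate 1 of each other group), and those of other pairs from -0.0982 to 0.0770. For 2 of 12 libraries the own number was always closest. The numbers were therefore not used to pair the samples. With the replicate block, members past the threshold remained 7 in GSTA4 against GFP and 9 in OSK against GFP, and all genes past it went from 4439 to 4734 and from 6962 to 7269. TAP2, with few reads, is limited by depth, and heavy chain levels by the unknown handling of shared reads.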
